A study of Arabidopsis thaliana with 17 samples.

Results

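The genes described here are the chromosome 1 genes of Arabidopsis thaliana whose transcript signals differed between the wild-type accessions Wassilewskija (WS) and Columbia (Col-0). A probe set was included when it named a single gene with a locus number beginning AT1G and its mean signals in WS and Col-0 differed by at least 1 on the log2 scale. This gave 431 probe sets of 22810 on the array, or 12.4% of the 3463 single-gene probe sets of chromosome 1, and they represent 428 genes. Of the 431, 134 had higher signals in WS and 297 had lower signals in WS. The members were chosen by these WS and Col-0 signals, so the differences are a description, with no test.

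Each array was hybridised with RNA from 1 pool of 10 plants, taken from rosette leaves at 4 weeks of age, and there were 17 arrays in 7 genotypes. The genotypes were psae1-3 stn7-1 (2 arrays), psae1-3 (2), WS (2), psad1-1 stn7-1 (3), psad1-1 (2), stn7-1 (3) and Col-0 (3). The labels name no treatment, describe the replicates as biological, and do not give the accession in which each mutant line was made. The psae1-3 and psad1-1 lines carry mutations in genes of photosystem I subunits, and stn7-1 is a mutation of STN7 (AT1G68830), which itself lies on chromosome 1.

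Accessions of a species differ in transcript level at many genes, through sequence differences in or beside the gene itself and through differences in regulators elsewhere in the genome. When lines from different accessions are crossed and plants are chosen for an allele, chromosome stretches linked to that allele tend to be inherited with it. STN7 is a protein kinase of the thylakoid membrane that takes part in balancing light use between the photosystems, and PSAD and PSAE are subunits on the stromal side of photosystem I. The ATH1 array was designed from the Col-0 sequence, so a lower transcript level in WS and a WS sequence difference under a probe cannot be told apart.

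The deposited values were on a different scale in 2 sets of arrays, with a 2% trimmed mean of 500 in the 6 arrays of psae1-3 stn7-1, psae1-3 and WS and of 100 in the other 11. All were brought to 100, and a signal below 8 was raised to 8, here called the floor, before log2 was taken. Log2 signals correlated at 0.974 to 0.987 between arrays of a genotype (13 pairs), at 0.924 to 0.985 between genotypes of an array set (57 pairs) and at 0.873 to 0.941 between the sets (66 pairs). The probe set of PSAE-1 (AT4G28750) averaged 7.81 ± 3.62 in psae1-3 stn7-1 and 43.5 ± 27.9 in psae1-3 (SD, n = 2 each), against 5009 ± 136 in WS (SD, n = 2) and 4406 ± 482 in Col-0 (SD, n = 3). No probe set is named for STN7 itself, so the transcript does not check that mutation. Of the leaf marker genes listed, RCA (Rubisco activase) ranged from 3559 to 6703 over all arrays, and the root hair marker EXPA7 from 0.833 to 18.6. In leaf RNA, fewer cells of a type and less RNA per cell cannot be told apart.

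Each member was placed on a scale on which the mean log2 signal of Col-0 is 0 and that of WS is 1, called its position. The median position of the 431 members was 0.72 in psae1-3 stn7-1 and 1.0 in psae1-3. It was 0.09 in psad1-1 stn7-1, 0.24 in psad1-1 and 0.17 in stn7-1. The psae1-3 line thus had WS levels at most of these genes, the psad1-1 and stn7-1 lines lay nearer Col-0, and the psae1-3 stn7-1 line was mixed. Array set, accession and genotype cannot be told apart in positions of the 500-scaled lines against Col-0.

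In psae1-3 stn7-1, 145 of the 431 members (33.6%) were below position 0.5, against 28 in psae1-3. Of the 431 members in psae1-3 stn7-1, 91 were below 0.25, 139 lay between 0.25 and 0.75, and 201 were above 0.75. Both psae1-3 stn7-1 arrays were below 0.5 for 119 members, both were at 0.5 or more for 252, and they fell on different sides for 60. In psae1-3 the corresponding counts were 13, 382 and 36. At 0.5 or more there were 83 members in psad1-1 stn7-1, 114 in psad1-1 and 62 in stn7-1.

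**Figure D1:**
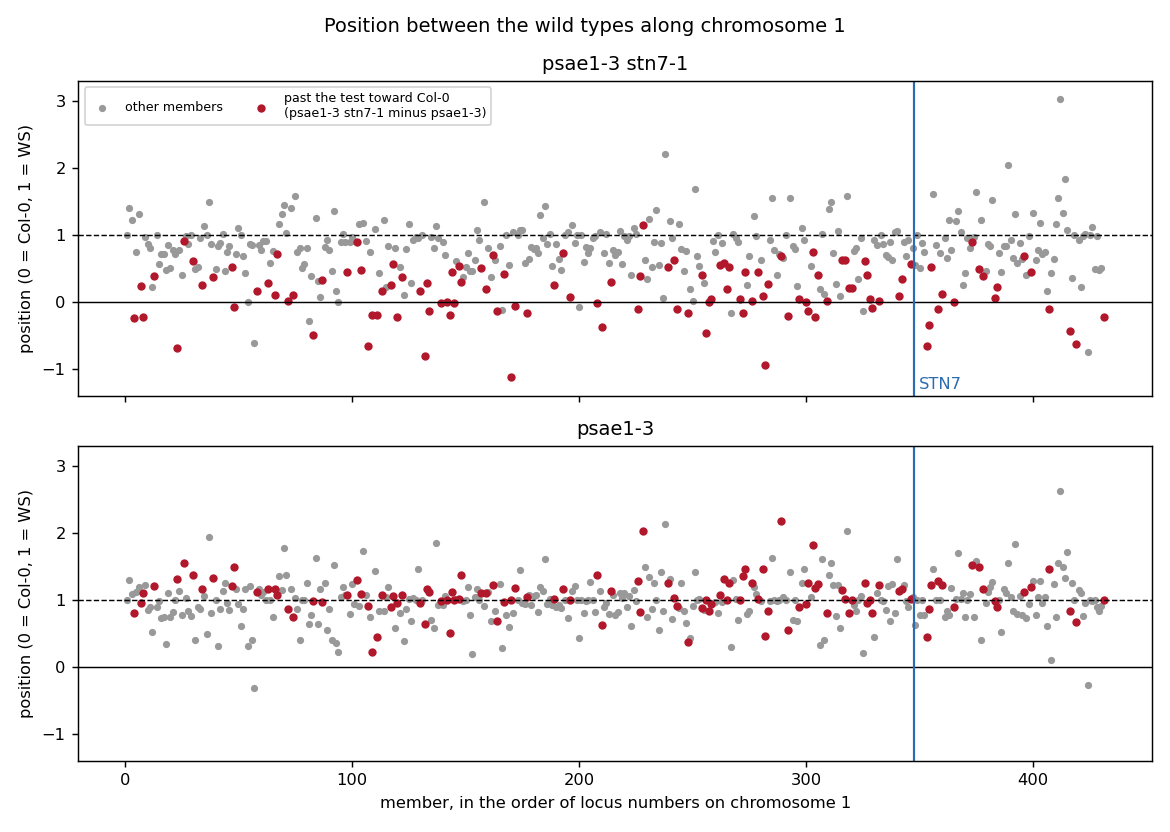
Position of each of the 431 members from Col-0 (0) to WS (1), in order of locus number along chromosome 1, in psae1-3 stn7-1 and in psae1-3; each point is 1 probe set, red where the change between the lines passed the test toward Col-0, and the vertical line marks STN7. In psae1-3 the points gather around the median of 1.0, and in psae1-3 stn7-1, with a median of 0.72, points at both levels occur along the whole chromosome.

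The members of both directions were represented among those near the Col-0 level. Of the 134 members higher in WS, 56 were below 0.5 in psae1-3 stn7-1, with a median position of 0.65, against 0.85 in psae1-3. Of the 297 lower in WS, 89 were below 0.5, with a median of 0.73, against 1.02 in psae1-3.

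Whether the psae1-3 stn7-1 line differed from psae1-3 at these genes was tested directly, in a comparison that used no array of WS or Col-0 for its means and lay within 1 array set. All 19694 tested probe sets were fitted together with limma, each genotype having its own mean, and a probe set passed at a Benjamini-Hochberg adjusted p of 0.05. A change was called toward Col-0 when its sign was opposite to that of WS minus Col-0. Of the 431 members, all of which were tested, 116 (26.9%) changed toward Col-0, where 6.12% of all tested probe sets did so. A single member changed toward WS, where 1.94% of all tested probe sets did. In either direction 117 members passed, against a background of 8.14%. The median change toward Col-0 was 0.45 log2 over the members and 0.03 over all tested probe sets.

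Both psae1-3 stn7-1 arrays lay outside the range of both psae1-3 arrays at 278 of the 431 members, where 44.4% of all tested probe sets were separated in this way. All 117 that passed were among the 278. Of the members lower in WS, 88 of 297 (29.6%) changed toward Col-0, and so did 28 of the 134 higher in WS (20.9%). With the model fitted on the 6 arrays of the 500-scaled set alone, 51 members passed, where 1.75% of all tested probe sets did.

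The member with the largest difference of all was AT1G66100, which encodes a thionin, a small cysteine-rich defence peptide. Its signals were 1696 and 1722 in psae1-3 stn7-1, against 5.5 and 2.68 in psae1-3 and 3.82 and 4.28 in WS. They were 2609, 2775 and 2600 in psad1-1 stn7-1, 2354 and 2058 in psad1-1, 2158, 2025 and 2194 in stn7-1, and 2040, 2055 and 2166 in Col-0. All 4 arrays of psae1-3 and WS were at the floor, and both psae1-3 stn7-1 arrays were high, just below the range of the other 11. The change from psae1-3 was at least 7.74 log2 (SE 0.09, limma adjusted p 8.95e-17), a lower bound because psae1-3 was at the floor.

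AT1G63880, a disease resistance protein of the TIR-NBS-LRR class, had 241 and 209 in psae1-3 stn7-1, against 7.42 and 9.88 in psae1-3 and 10.4 and 17.2 in WS. The 11 arrays of the 100-scaled set ranged from 72.2 to 171 with a median of 120. Here both psae1-3 stn7-1 arrays were above every other array. The change was at least 4.66 log2 (SE 0.25, limma adjusted p 2.22e-08), as 1 psae1-3 array was below the floor. AT1G23960 had 167 and 180 in psae1-3 stn7-1, against 0.378 and 0.597 in psae1-3, 8.03 and 0.665 in WS, and 138 to 211 with a median of 163 in the 100-scaled set. The psae1-3 stn7-1 arrays lay inside the range of the 100-scaled set, and the change was at least 4.44 log2 (SE 0.17, limma adjusted p 4.55e-10).

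AT1G73490, an RNA-binding protein, had 183 and 190 in psae1-3 stn7-1, against 11.6 and 14.6 in psae1-3, 13.7 and 11.1 in WS, and 201 to 316 with a median of 237 in the 100-scaled set. The change was 3.84 log2 (SE 0.16, limma adjusted p 1.17e-09), and the psae1-3 stn7-1 arrays came close to the 100-scaled set without reaching it. AT1G29600, a zinc finger protein, had 97.2 and 76.3 in psae1-3 stn7-1, against 5.47 and 0.77 in psae1-3, 3.68 and 2.91 in WS and 19.4, 25.8 and 29.3 in Col-0. Its position was -1.12, the lowest of all members, so that it lay past the Col-0 level on the side away from WS, and the psad1-1, psad1-1 stn7-1 and stn7-1 arrays, at 28.7 to 79.3, overlapped both psae1-3 stn7-1 and Col-0. AT1G66540, a cytochrome P450, had 95.5 and 82.2 in psae1-3 stn7-1, against 7.89 and 10.4 in psae1-3, 9.06 and 20.9 in WS and 35.6 to 105 with a median of 81 in the 100-scaled set.

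**Figure D2:**
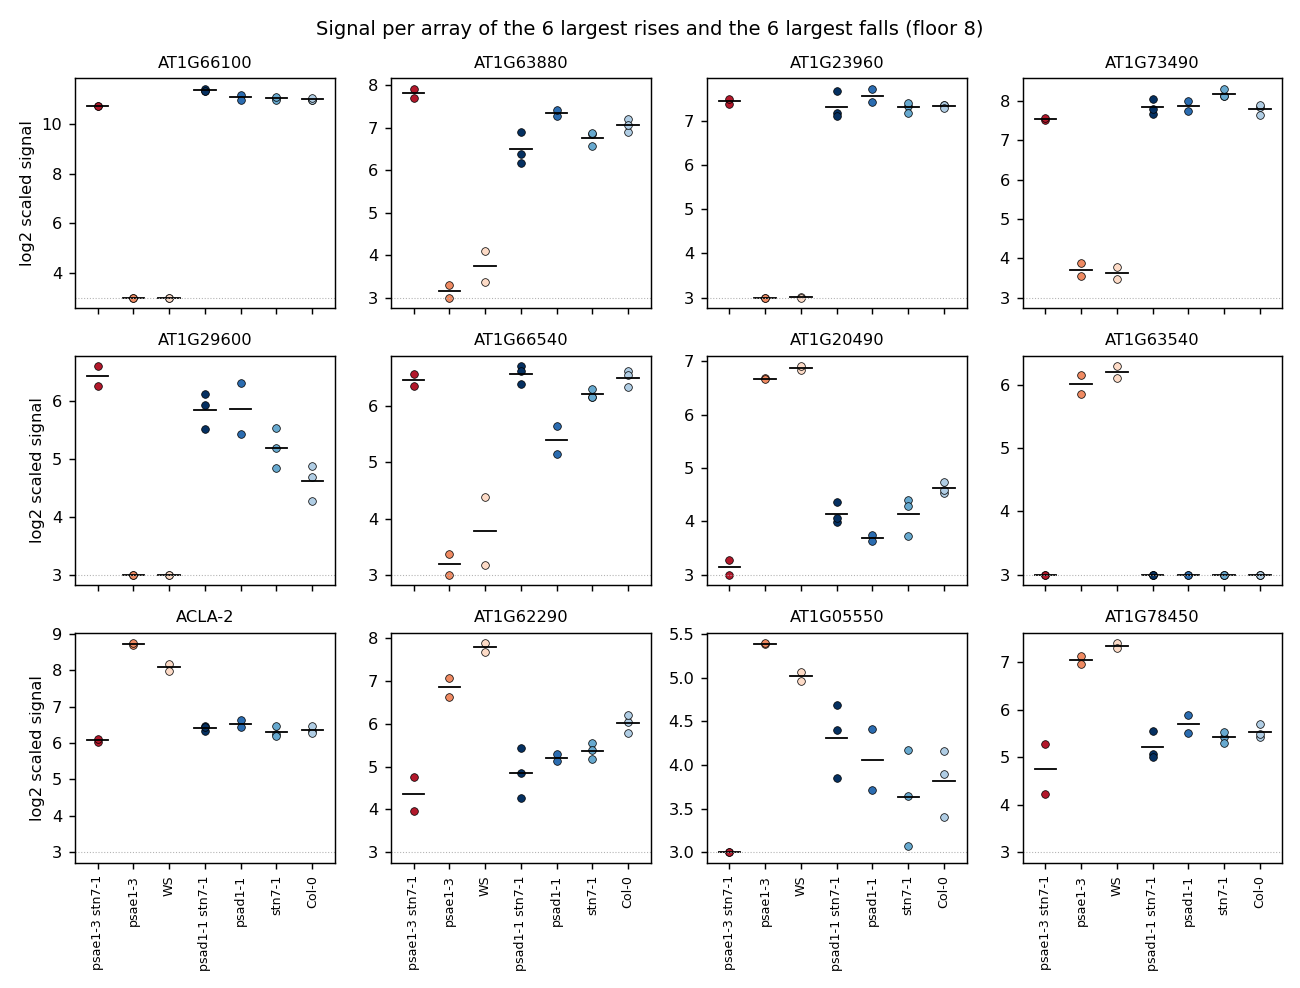
Log2 of the scaled signal of the 6 members with the largest rises and the 6 with the largest falls in psae1-3 stn7-1 against psae1-3, with 1 point per array, horizontal bars at the genotype means and a dotted line at the floor of 8. At AT1G66100 the psae1-3 stn7-1 arrays read 1696 and 1722 beside the 11 arrays of the 100-scaled set, while psae1-3 and WS are at the floor.

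The 15 largest rises in psae1-3 stn7-1 over psae1-3 also held AT1G23140 (at least 3.19 log2), the pseudogene AT1G35612 (at least 3.17), AT1G10340 (3.07), which has ankyrin repeats, AT1G12400 (at least 2.89), a small subunit of the transcription and repair factor TFIIH, and AT1G11280 (2.88), a receptor-like kinase with an S-locus lectin domain. They further held ZCF37 (AT1G59590, at least 2.88), the TIR-NBS gene AT1G66090 (at least 2.86), the zinc finger repressor gene STZ (AT1G27730, 2.73) and ZW9 (AT1G58270, at least 2.65). All 15 had lower signals in WS than in Col-0. The calls for AT1G66090 and STZ rest on single arrays: without array A of psae1-3 stn7-1 the adjusted p was 0.0885 for AT1G66090 and 0.0689 for STZ, and without array A of psae1-3 it was 0.0539 for STZ.

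Among the members that fell in psae1-3 stn7-1, AT1G20490, an AMP-dependent synthetase and ligase, had 4.92 and 9.69 in psae1-3 stn7-1, against 103 and 101 in psae1-3, 114 and 120 in WS, and 12.4 to 26.7 with a median of 19.5 in the 100-scaled set. Both psae1-3 stn7-1 arrays were below all others. The change was -3.53 log2 (SE 0.23, limma adjusted p 1.56e-07), a lower bound of the fall because 1 psae1-3 stn7-1 array was below the floor. AT1G63540 had 1.73 and 3.63 in psae1-3 stn7-1, against 58 and 71.3 in psae1-3 and 69.1 and 78.3 in WS. All 11 arrays of the 100-scaled set were at the floor, between 0.525 and 2.11, as were both psae1-3 stn7-1 arrays. The fall of 3.01 log2 is therefore a lower bound (SE 0.15, limma adjusted p 1.01e-08).

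ACLA-2 (AT1G60810), a subunit of the ATP-citrate lyase that makes cytosolic acetyl-CoA, had 65.5 and 69.4 in psae1-3 stn7-1, against 411 and 426 in psae1-3, 290 and 252 in WS and 73.5 to 98.3 with a median of 86.3 in the 100-scaled set. The groups with high and low signals did not overlap, and the change was -2.63 log2 (SE 0.13, limma adjusted p 7.23e-09). AT1G02300, a cathepsin B-like cysteine protease, had 115 and 101 in psae1-3 stn7-1, against 499 and 516 in psae1-3, 472 and 642 in WS and 68.8, 59 and 65.7 in Col-0. Its psae1-3 stn7-1 arrays lay between the groups, nearer Col-0 at a position of 0.24, and the change was -2.23 log2 (SE 0.24, limma adjusted p 2.84e-05).

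The other members among the 15 largest falls were AT1G62290 (-2.50 log2), an aspartyl protease, AT1G05550 (at least 2.39 lower), AT1G78450 (-2.30), the bromodomain gene AT1G58025 (at least 2.09 lower), AT1G30250 (-1.96), MHF2 (AT1G78790, -1.57), AT1G23850 (-1.54), AT1G26920 (-1.50), AT1G50280 (-1.48), AT1G50290 (-1.48) and AT1G23120 (-1.46). All 15 had higher signals in WS. The fall of AT1G30250 had an adjusted p of 0.258 without array A of psae1-3, 0.168 without array A of psae1-3 stn7-1 and 0.0846 without array B of psae1-3 stn7-1. That of AT1G23850 had 0.172 without array B of psae1-3 and 0.121 without array A of psae1-3 stn7-1, and that of AT1G23120 had 0.0513 without array A of psae1-3 stn7-1.

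The single member that changed toward WS was AT1G72390 (PHL, a gene named for phytochrome-dependent late flowering), which is named after its value was seen. It had 16.2 and 22.5 in psae1-3 stn7-1, against 8.27 and 13.7 in psae1-3, 17.9 and 14.8 in WS and 1.21 to 6.76 in the 100-scaled set. The change was 0.85 log2 (SE 0.21, limma adjusted p 0.0191). All its signals were low, and the adjusted p was 0.232 without array A of psae1-3 and 0.15 without array B of psae1-3 stn7-1. It was 0.0785 after quantile normalization, 0.219 with a floor of 16, 0.534 with a floor at the 10th percentile and 0.304 in the fit on the 6 arrays of the 500-scaled set alone.

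The members that changed toward Col-0 were spread along the chromosome. By the first digit of the locus number, their counts were 9 of 43 for AT1G0 (20.9%), 12 of 60 for AT1G1 (20%), 26 of 68 for AT1G2 (38.2%), 5 of 30 for AT1G3 (16.7%) and 3 of 23 for AT1G4 (13%). They were 15 of 43 for AT1G5 (34.9%), 33 of 92 for AT1G6 (35.9%), 12 of 63 for AT1G7 (19.0%) and 1 of 9 for AT1G8 (11.1%). The shares were thus highest in the blocks AT1G2, AT1G5 and AT1G6, the last of which holds STN7. Differences between blocks were not tested. The counts below position 0.5 followed the same order of blocks at the top, with 31 of 68 in AT1G2, 35 of 92 in AT1G6 and 16 of 43 in AT1G5.

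**Figure D3:**
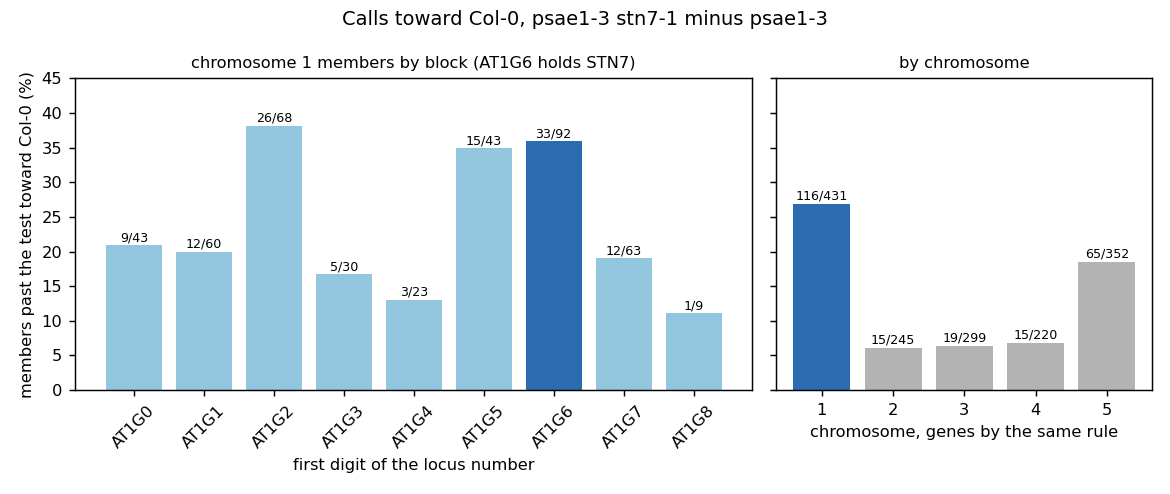
Percent of members that changed toward Col-0 in psae1-3 stn7-1 against psae1-3, by block of 10000 locus numbers along chromosome 1 and for the members of the other chromosomes by the same rule, with counts above the bars. The chromosome 1 blocks range from 11.1% in AT1G8 to 38.2% in AT1G2, and the background of all tested probe sets is 6.12%.

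Members next to each other in locus order often had different positions. The 431 members fell into 194 runs of neighbours on the same side of position 0.5 in psae1-3 stn7-1. The longest run below 0.5 held 5 members, AT1G56720 to AT1G58150, with AT1G56675 before it and AT1G58170 after it. The longest run at 0.5 or more held 11 members, AT1G32740 to AT1G33811, with AT1G31440 before it and AT1G34110 after it. Even in stn7-1, psad1-1 stn7-1 and psad1-1, which lay nearer Col-0, 62, 83 and 114 of the 431 members were at 0.5 or more. Such members would break up a run, so this ordering cannot show whether there is a continuous stretch of Col-0 levels.

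Around STN7 the question was whether members there lay nearer Col-0 in psae1-3 stn7-1 than elsewhere. Within 5000 locus numbers of AT1G68830 there were 83 members, of which 29 (34.9%) were below position 0.5, against 116 of the 348 others (33.3%). The median positions were 0.73 near STN7 and 0.72 elsewhere. Of the 83, 27 changed toward Col-0 (32.5%), against 89 of the 348 (25.6%). Members near STN7 were therefore hardly more often at the Col-0 side than the rest, and these differences were not tested. The sign of the difference depended on the distance chosen, with 8 of 38 members (21.1%) within 2500 locus numbers against 137 of 393 elsewhere (34.9%), and 55 of 155 (35.5%) within 10000 against 90 of 276 elsewhere (32.6%).

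The 30 members nearest to STN7 held 7 below position 0.5 in psae1-3 stn7-1 (23.3%, against 33.6% of all members). They held 9 that changed toward Col-0 (30%), where 26.9% of all members and 6.12% of all tested probe sets did. The 3 closest on the list, AT1G69020, AT1G69080 and AT1G68490, had positions of 0.56, 1.00 and 0.81 in psae1-3 stn7-1, and their differences from psae1-3, 0.09, 0.00 and -0.25 log2, did not pass the test. AT1G69550, a TIR-NBS-LRR gene, had 57.3 and 57 in psae1-3 stn7-1, against 10.8 and 14.9 in psae1-3, 10.4 and 10.7 in WS and 29.6 to 42.1 with a median of 36.4 in the 100-scaled set. Both psae1-3 stn7-1 arrays were above all others (2.17 log2, SE 0.23, limma adjusted p 2.57e-05). AT1G69840, a membrane protein with a Band 7 domain, had 893 and 584 in psae1-3 stn7-1, against 173 and 191 in psae1-3, 251 and 233 in WS and 556, 734 and 680 in Col-0. Its psae1-3 stn7-1 arrays overlapped Col-0 but were above the 8 arrays of the stn7-1, psad1-1 and psad1-1 stn7-1 lines, which ranged from 212 to 392 (1.99 log2, SE 0.17, limma adjusted p 3.12e-06).

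AT1G70000, a MYB-like gene, had 152 and 186 in psae1-3 stn7-1, against 43.3 and 40.4 in psae1-3, 53.1 and 58.8 in WS and 139 to 314 with a median of 185 in the 100-scaled set. The psae1-3 stn7-1 arrays lay within the 100-scaled set and apart from psae1-3 and WS (2.01 log2, SE 0.18, limma adjusted p 5.31e-06). AT1G69523 changed by 1.29 log2 (limma adjusted p 0.000252), with 237 and 198 in psae1-3 stn7-1, above every other array, against 80 and 98.1 in psae1-3. AT1G70430, a protein kinase, was at the floor in both psae1-3 stn7-1 arrays, against 25.9 and 17.5 in psae1-3 (at least 1.41 log2 lower, limma adjusted p 0.00232).

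The remaining 4 of the 9, AT1G68440 (0.92 log2), AT1G69570 (0.92), a Dof transcription factor gene, AT1G67880 (1.45) and AT1G67865 (1.76), lost their calls without single arrays. AT1G69570 and AT1G67865 did so without any of the 4 arrays of psae1-3 stn7-1 and psae1-3, AT1G68440 without either array of psae1-3 stn7-1 or array A of psae1-3, and AT1G67880 without array A of either line. The adjusted p reached 0.366 for AT1G68440 without array A of psae1-3 and 0.249 for AT1G69570 without the same array. It reached 0.0689 for AT1G67880 and 0.137 for AT1G67865 without array A of psae1-3 stn7-1. Among the 30, AGO7 (AT1G69440), an Argonaute protein of the small RNA pathway, kept WS-side levels, with 148 and 107 in psae1-3 stn7-1, against 119 and 145 in psae1-3, 192 and 159 in WS and 51, 45 and 43.4 in Col-0.

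**Figure D4:**
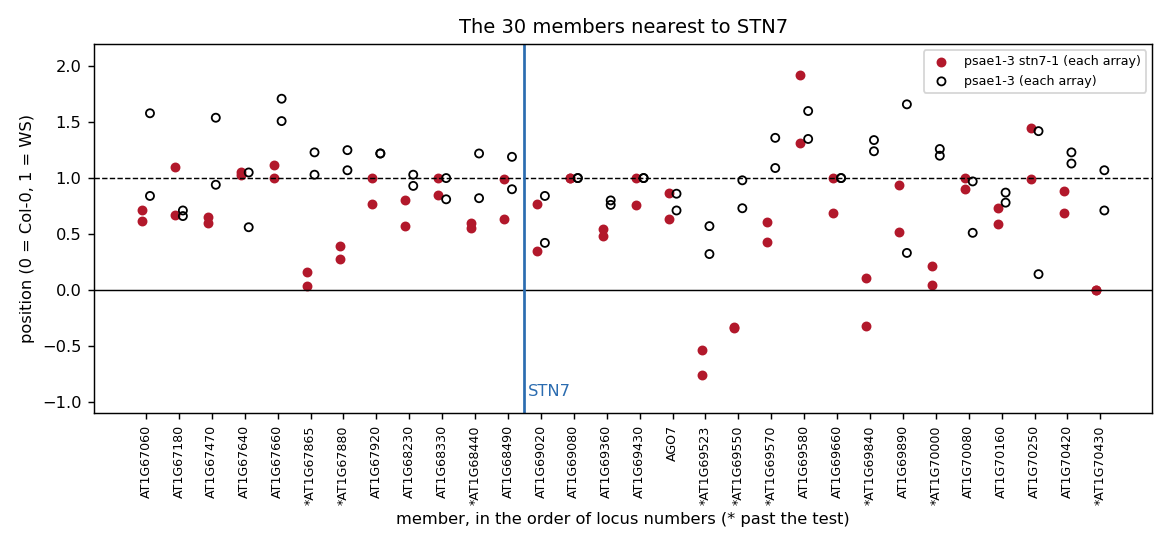
Position from Col-0 (0) to WS (1) of each psae1-3 stn7-1 array (filled) and each psae1-3 array (open) at the 30 members nearest to STN7, in locus order, with an asterisk where the change passed the test. In psae1-3 stn7-1, 7 of the 30 have a mean position below 0.5, and the 3 closest, AT1G69020, AT1G69080 and AT1G68490, have means of 0.56, 1.00 and 0.81.

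The 10 members with the largest differences between WS and Col-0 all had lower signals in WS. After AT1G66100 (-8.03 log2) they were CML38 (AT1G76650, -5.91), a calmodulin-like calcium sensor, AT1G66090 (-5.25), STZ (-5.20), ZW9 (-5.12), ORA47 (AT1G74930, -4.98), a transcription factor of the AP2/ERF family, AT1G54050 (-4.41), a small heat shock protein, AT1G32920 (-4.36), AT1G23960 (-4.33) and AT1G15010 (-4.27). In psae1-3 stn7-1, 6 of the 10 changed toward Col-0, where 26.9% of all members and 6.12% of all tested probe sets did. Having the largest differences, these 10 also had the most room for such a change. By position, 3 of the 10 were below 0.5. AT1G54050 was among the 6 (at least 1.78 log2, limma adjusted p 0.00142).

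CML38 had 47.6 and 20.7 in psae1-3 stn7-1, against 9.57 and 7.37 in psae1-3, 8.6 and 13.3 in WS and 309, 1115 and 772 in Col-0. The other lines of the 100-scaled set ranged from 31.1 to 295. The change of CML38 in psae1-3 stn7-1 from psae1-3, at least 1.84 log2, had a limma adjusted p of 0.0645. Col-0 stood above all other lines here. Within Col-0 array B was highest, as it was for STZ, ORA47, AT1G66090, ZW9, AT1G32920 and AT1G15010. It was not highest for AT1G66100, AT1G54050 and AT1G23960. This spread among the Col-0 arrays enters the WS minus Col-0 differences and so the positions. Without Col-0 array A, B or C the rule would have given 468, 467 or 420 members in place of 431. ORA47 had 41.2 and 25.7 in psae1-3 stn7-1, against 15.9 and 32.3 in psae1-3, 18.8 and 35.3 in WS and 393, 1466 and 929 in Col-0, so psae1-3 stn7-1, psae1-3 and WS overlapped (0.52 log2, limma adjusted p 0.757).

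Some members were at the floor in 1 wild type and clearly measured in the other, a classification added after the data were seen. In 9 members all WS arrays were at the floor and all Col-0 arrays at 32 or more. Of these 9, 8 were above the floor in both psae1-3 stn7-1 arrays, while psae1-3 was at the floor in all arrays for 6. Their positions in psae1-3 stn7-1 were -0.11 for AT1G54260, 0.04 for AT1G66100, 0.07 for AT1G35612, 0.20 for ZCF37, 0.21 for AT1G65500, 0.41 for AT1G66090, 0.57 for AT1G15010, 0.70 for AT1G66810 and 0.91 for AT1G12010. The 2 members at the floor in Col-0 and at 32 or more in WS, AT1G58025 and AT1G63540, were at the floor in both psae1-3 stn7-1 arrays too. Signal above the floor, or its absence, was thus as in Col-0 in both psae1-3 stn7-1 arrays at 10 of these 11 members, and as in WS in both psae1-3 arrays at 8. Over all probe sets, 26.6% and 28.1% were below the floor in the psae1-3 stn7-1 arrays, and 30.3% and 29.3% in the psae1-3 arrays. Most probe sets were thus above the floor in any case, so little can be read from the 8 of 9. A signal above the floor was not always near the Col-0 level. At AT1G66810 psae1-3 stn7-1 had 12.6 and 12.4, against 32.5, 35.9 and 36.8 in Col-0. By position, 6 of the 9 and both of the other 2 were below 0.5 in psae1-3 stn7-1.

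A stricter description, also added after the data were seen, kept the 286 members whose 11 arrays of the 100-scaled set did not overlap the 4 arrays of psae1-3 and WS. Of all tested probe sets 21.8% were separated in this way, and nothing is read from this count, since the WS and Col-0 arrays chose the members. At 67 of them (23.4%) both psae1-3 stn7-1 arrays lay within the range of the 100-scaled set or beyond it. At 68 (23.8%) they lay within the range of psae1-3 and WS or beyond it. They lay between the ranges at 74 members and were mixed at 77. The members with the levels of the 100-scaled set extended from AT1G01390 to AT1G80960, near both ends of the locus order. Near STN7, 12 of 54 such members had them and 9 had the levels of psae1-3 and WS, against 55 and 59 of the 232 elsewhere.

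By the same rule there were 245 members on chromosome 2, 299 on chromosome 3, 220 on chromosome 4 and 352 on chromosome 5. The share that changed toward Col-0 in psae1-3 stn7-1 was 26.9% on chromosome 1, against 6.12%, 6.35%, 6.82% and 18.5% on chromosomes 2, 3, 4 and 5. It was highest on chromosome 1 in 28 of 28 settings of the processing, where it ranged from 11.6% to 28.3%, against 5.11% to 19% on chromosome 5. Of the separated members, 67 of 286 had the levels of the 100-scaled set on chromosome 1, against 6 of 142 on chromosome 2, 6 of 202 on chromosome 3, 5 of 146 on chromosome 4 and 33 of 224 on chromosome 5. Chromosome 1 genes that were not members passed the test of psae1-3 stn7-1 against psae1-3 in 204 of 2509 cases (8.13%). This was near the 8.14% of all tested probe sets that passed. The corresponding shares of genes that were not members were 4.07%, 4.6%, 4.23% and 6.53% on chromosomes 2, 3, 4 and 5. The differences between chromosomes are descriptions without a test.

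The psae1-3 and psae1-3 stn7-1 lines were also each compared with the mean of stn7-1, psad1-1 and psad1-1 stn7-1, whose 8 arrays both comparisons share. In psae1-3 stn7-1, 274 members passed in either direction (where 45.1% of all tested probe sets did), 246 of them toward WS (57.1%, where 37.5% of all tested probe sets did) and 28 toward Col-0 (7.38% of all tested). In psae1-3, 361 passed (where 46.3% of all tested probe sets did), 357 of them toward WS (82.8%, where 42% of all tested probe sets did) and 4 toward Col-0 (4.19% of all tested). Over all tested probe sets the median signed difference was -0.07 log2 in psae1-3 stn7-1 and -0.10 log2 in psae1-3. Array set, accession and genotype cannot be told apart in these comparisons.

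For psae1-3 the sign was toward Col-0, relative to stn7-1, psad1-1 and psad1-1 stn7-1, at 4 members named after their values were seen. They were AT1G62510, AT1G64360, cICDH (AT1G65930), a cytosolic isocitrate dehydrogenase, and AT1G77030. At AT1G62510, AT1G64360 and cICDH psae1-3 itself was nearer WS than Col-0. At AT1G62510 psae1-3 had 169 and 193, against 167 and 184 in WS and 645, 644 and 795 in Col-0. Only AT1G77030 was nearer Col-0, with 7.99 and 9.24 in psae1-3, against 14.8 and 18.4 in WS and 3.67, 1.57 and 4.88 in Col-0. In cICDH the signals were 1287 and 1215 in psae1-3 stn7-1, 1163 and 1541 in psae1-3, 1322 and 1247 in WS and 739, 514 and 628 in Col-0, while psad1-1 stn7-1 and psad1-1 arrays, at 2214 to 2399, were above all of them. AT1G80130, also named after its values were seen, stood apart from the general pattern of psae1-3. It had 161 and 109 in psae1-3 stn7-1 and 311 and 189 in psae1-3, against 1020 and 1537 in WS and 335, 418 and 293 in Col-0, so that psae1-3 was below both WS arrays and overlapped Col-0.

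Between the lines of the other photosystem I mutant with and without stn7-1, few probe sets differed, among the members and over the array alike. In psad1-1 stn7-1 against psad1-1, 6 members passed, where 1.13% of all tested probe sets did, with 5 toward Col-0 (0.716% of all tested) and 1 toward WS (0.371%). The largest was AT1G65500, with 145, 169 and 131 in psad1-1 stn7-1, against 72.7 and 51.4 in psad1-1 (1.27 log2, SE 0.23, limma adjusted p 0.0238). The count depended on single arrays, and so did the share of all tested probe sets. Without array B of psad1-1 stn7-1, 0 members passed (0.173% of all tested), and without its array A 12 did (1.76% of all tested). The count was 1 to 3 without array C of psad1-1 stn7-1 or Col-0, or array A or B of stn7-1 (0.355% to 1.03% of all tested). This list is not complete, and fits that left 1 array in a genotype are not in it. Of the 116 members that changed toward Col-0 in psae1-3 stn7-1 against psae1-3, 2 also passed here.

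The difference between the pairs of lines, psae1-3 stn7-1 minus psae1-3 set against psad1-1 stn7-1 minus psad1-1, was tested in the same model. Since psae1-3 stn7-1 and psae1-3 also differed in their positions between the wild types, the stn7-1 mutation and the accession background cannot be told apart in it. It passed for 77 members, where 4.71% of all tested probe sets did, with 76 toward Col-0 (3.25% of all tested) and 1 toward WS (1.4%). The difference was at least 7.47 log2 for AT1G66100, and at least 5.51 log2 for AT1G63880. The 1 member toward WS, named after its value was seen, was AT1G23205 (-1.43 log2, limma adjusted p 0.0149), with 22.1 and 28.9 in psae1-3 stn7-1 against 34.5 and 36.9 in psae1-3, and 112, 122 and 194 in psad1-1 stn7-1 against 68.5 and 76.3 in psad1-1. Without array A of psae1-3 stn7-1 the count was 48 in place of 77.

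**Figure D5:**
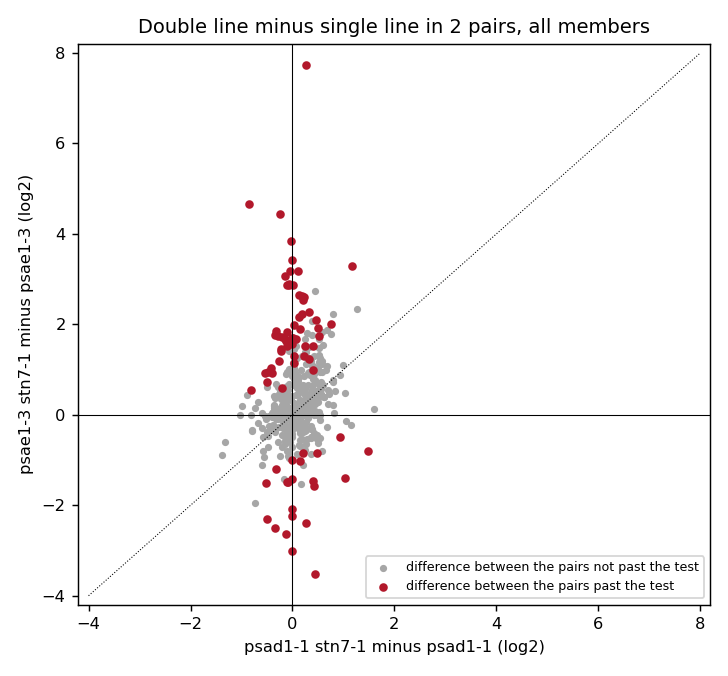
Log2 difference of psae1-3 stn7-1 minus psae1-3 (vertical axis) and of psad1-1 stn7-1 minus psad1-1 (horizontal axis) at each of the 431 members, red where the difference between the pairs passed the test. The vertical values reach 7.74 log2 at AT1G66100. On that axis 117 members passed the test, where 8.14% of all tested probe sets did. On the horizontal axis 6 passed, where 1.13% of all tested probe sets did.

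By the gene table, 418 of the 431 members are protein-coding, 11 are pseudogenes and 2 are transcribed pseudogenes. Families could be counted by gene symbol only. Among the chromosome 1 probe sets with such a symbol, 2 of 12 UDP-glycosyltransferase genes, 3 of 11 glutathione S-transferase genes, 2 of 2 calmodulin-like genes (CML23 and CML38) and 0 of 4 cytochrome P450 genes were members. Genes without such a symbol are missed, as is the member AT1G66540, a cytochrome P450, so these are not shares of whole families. For 3 genes a second probe set was also a member, and positions in psae1-3 stn7-1 were 1.40 and 1.22 for AT1G01320, 0.74 and 0.83 for AT1G10090, and 3.03 and 1.33 for AT1G77960, on the same side of 0.5 in each case.

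The choice of threshold sets the edge of the list. Just inside it were GH9C2 (AT1G64390) with a WS minus Col-0 difference of 1.0006 log2, AT1G23120 with 1.0038 and AT1G52320 with 1.0052. Just outside were AT1G58070 with -0.9991, AT1G17600 with 0.9987 and AT1G14730 with -0.9976. A floor of 1.57 in place of 8 would have given 833 members, and a floor of 16 would have given 290.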

How the data were processed

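Total RNA (5 µg per array) from rosette leaves was hybridised to 17 ATH1 arrays. The authors deposited a linear intensity per probe set, computed with GCOS and MAS5 per the submitters' processing notes, whose versions were not given in the sources used here. Each array was scaled here to a 2% trimmed mean of 100, signals below 8 were set to 8, log2 was taken and 64 control probe sets were left out. Scaled medians were 33.5 to 39.1 in the 100-scaled set and 29.3 to 33.5 in the 500-scaled set. Depth does not apply to arrays; their number limits the precision. Probe sets above 8 in at least 2 arrays (19694) were tested with limma 3.58.1 in R 4.3.3, with 1 mean per genotype over all 17 arrays, eBayes with trend (10 residual and 4.46 prior degrees of freedom), two-sided, and Benjamini-Hochberg adjustment over all tested probe sets. The script was tested on simulated data. Genes were named through the platform's probe table, which lists 14016 probe sets, 13513 of them with 1 gene, and RefSeq's TAIR10.1 gene table, which served for names only. Sequences and coordinates are not used here.

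The members and lists were chosen with earlier results of these data known. Genes named are the 30 members nearest to STN7 by locus number, the 10 with the largest difference between WS and Col-0, the 15 largest passing changes in each direction, the 3 on each side of the threshold and those flanking the longest runs; others are said to be chosen after their values were seen. On chromosome 1, 4 loci are not reported here. Replicate letters did not pair the samples: same-letter deviations of psae1-3 stn7-1 and psae1-3 correlated at -0.0828. Alternatives were other scalings, floors, filters and variance models, a replicate block, fits on 1 array set, and leaving out each array.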

Additional observations from a re-analysis of the deposited data

Results flagged for a closer look

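At 77 members the difference of psae1-3 stn7-1 minus psae1-3 departed from that of psad1-1 stn7-1 minus psad1-1, by the test of the difference itself. The stn7-1 mutation and the accession background cannot be told apart in it. All values below are log2 differences, psae1-3 stn7-1 minus psae1-3 less psad1-1 stn7-1 minus psad1-1, at a limma adjusted p under the threshold. Among the named members that rose in psae1-3 stn7-1, it was 7.47 for AT1G66100, 5.51 for AT1G63880, 4.69 for AT1G23960, 3.87 for AT1G73490, 3.44 for AT1G29600, 3.24 for AT1G23140, 3.22 for AT1G10340, 3.07 for AT1G35612, 2.99 for ZCF37 (AT1G59590), 2.96 for AT1G12400, 2.94 for AT1G11280, 2.84 for AT1G66090, 2.51 for ZW9 (AT1G58270) and 2.1 for AT1G66540. STZ, with 2.29 and an adjusted p of 0.077 by the same limma test, did not pass.

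Among the named members that fell, the difference was -3.99 for AT1G20490, -3.01 for AT1G63540, -2.65 for AT1G05550, -2.51 for ACLA-2 (AT1G60810), -2.23 for AT1G02300, -2.15 for AT1G62290, -2.09 for AT1G58025, -2.00 for MHF2 (AT1G78790), -1.88 for AT1G23120, -1.81 for AT1G78450, -1.39 for AT1G50290, -1.38 for AT1G50280 and -0.98 for AT1G26920. Among the 30 members nearest to STN7 it was 2.04 for AT1G69550, 1.96 for AT1G69840, 1.46 for AT1G69570, 1.32 for AT1G68440, 1.25 for AT1G70000, 1.08 for AT1G69523, -1.32 for AT1G70420 and -1.41 for AT1G70430. Where psae1-3 or psae1-3 stn7-1 was at the floor in 1 or both arrays, and all psad1-1 and psad1-1 stn7-1 arrays were above it, the value is a lower bound of the difference in size. Examples are AT1G66100, AT1G23960 and AT1G63880. At AT1G63540, AT1G58025 and AT1G70430 the psad1-1 and psad1-1 stn7-1 arrays were at the floor as well, so the value is not a bound.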

How the results depend on the processing

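The count of 431 members became 290 with a floor of 16 and 390 after quantile normalization. It became 833 with a floor at the 10th percentile (1.57) and 182 with a threshold of 1.5 log2. Of members near STN7, 29 lay below position 0.5; the count was 54 with that floor, 18 with that threshold, 19 and 44 for positions of 0.25 and 0.75, and 8 and 55 for distances of 2500 and 10000. For the 116 elsewhere it was 278, 58, 72 and 186. With that floor or that threshold the counts come from the lists of 833 and 182 members, so they do not compare shares with those of the 431. The 117 members that passed between psae1-3 stn7-1 and psae1-3 were 51 with only the 6 arrays of the 500-scaled set and 111 with a replicate block, and ranged from 79 to 123 when 1 array was left out. The 6 of the psad1-1 comparison became 3 with equal array medians or without trend, 12 with a floor of 16, 10 among the top 60% of probe sets, 1 with only the 11 arrays of the 100-scaled set and 0 with the replicate block, and ranged from 0 to 12 when 1 array was left out. The 77 of the difference between the pairs of lines became 66 with the block, and 48 to 79 when 1 array was left out. The share of all tested probe sets that passed moved as well. Between psae1-3 stn7-1 and psae1-3 it was 8.14%, then 1.75% with only the 6 arrays and 7.15% with the block. For the psad1-1 comparison, at 1.13%, it became 0.837% with equal medians, 0.691% without trend and 1.92% with a floor of 16. It was 2.17% among the top 60%, 0.142% with only the 11 arrays and 0.239% with the block. For the difference between the pairs, at 4.71%, it became 3.45% with the block. The cause of these changes was not tested.

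Of 41 named members past the test, 18 passed under every alternative run, and none of 568 recomputed values changed sign. With only the 6 arrays, 21 lost their call, and without array A of psae1-3 stn7-1, 9 did. With a replicate block, AT1G68440 (adjusted p 0.0596) and AT1G69570 (0.0562) lost theirs. Signals near the floor limit what can be compared.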
